A study of Homo sapiens with 12 samples.

Results

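The genes described here are 33 genes of cholesterol and fatty acid synthesis, taken by symbol from a table of 58037 gene identifiers, of which 56948 carried a symbol. They comprise 5 regulators, 17 enzymes of the sterol pathway, the sterol carrier STARD4 and 10 enzymes of fatty acid synthesis, elongation, desaturation and activation. RNA-seq had been performed on 2 prostate cancer lines, LNCaP-AI and DU-145, each carrying tet-MUC1shRNA, a construct from which doxycycline (DOX) induces a short hairpin RNA against MUC1. LNCaP-AI cells are an androgen-independent line selected from C4-2B cells, a derivative of LNCaP, and DU-145 cells are an androgen-insensitive prostate cancer line. There were 4 groups of 3 samples each. These were LNCaP-AI cells with vehicle, LNCaP-AI cells given DOX at 500 ng/ml over 7 days, DU-145 cells with vehicle and DU-145 cells with the same DOX treatment. The labels call the groups of each line control shRNA and MUC1 shRNA, whereas the study describes vehicle and DOX treatment of cells that all carry the MUC1 hairpin. The labels place both lines in phenol red-free medium with charcoal-stripped serum, and the study's methods give heat-inactivated fetal bovine serum, not charcoal-stripped, for DU-145 cells. No DOX-treated cells with a control hairpin were analysed here, so an effect of DOX and an effect of the hairpin cannot be told apart.

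Cholesterol is built from acetyl-CoA through mevalonate, isoprenoid units, squalene and lanosterol, and fatty acids are built from acetyl-CoA through malonyl-CoA before they are elongated and desaturated. Both pathways are driven by the sterol regulatory element-binding proteins (SREBPs), transcription factors held in the endoplasmic reticulum by SCAP and the INSIG proteins when sterols are plentiful. When sterols are scarce, SCAP carries SREBP to the Golgi, where proteases release its active part, and SREBP-2 acts mainly on sterol genes while SREBP-1c acts mainly on fatty acid genes. In prostate cancer cells both pathways are known to supply membrane lipids for growth.

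Counts per sample came to 16569613 to 26961777 in LNCaP-AI cells and 10423437 to 13544153 in DU-145 cells. All 33 genes passed the filter of at least 10 counts in at least 3 samples in every comparison. The lowest single value was 10 counts, for CYP51A1 in DU-145 vehicle 2. MUC1, the target of the hairpin, had 36, 25 and 52 counts in LNCaP-AI vehicle samples against 8, 6 and 3 with DOX, and 74, 60 and 59 counts in DU-145 vehicle samples against 3 in each DOX sample. The 6 LNCaP-AI samples did not part by treatment along their main axis of variation, the first principal component, which carried 82.5% of their variance. What is called the vehicle 1 side here held DOX 2, DOX 3 and vehicle 1, and what is called the vehicle 2 side held DOX 1 with vehicle 2 and vehicle 3. The 5 markers fixed for DU-145 cells summed to 162 to 186 counts relative to library size (CPM) on the vehicle 1 side and 899 to 1072 CPM on the vehicle 2 side, against 2417 to 2682 CPM in DU-145 cells. Of these, KRT7 was 0.18 to 1.02 CPM on the vehicle 1 side and 424 to 563 CPM on the vehicle 2 side, and CAV1 was 0.06 to 0.29 CPM against 78.9 to 91.9 CPM. VIM was 28.9 to 32.2 CPM in LNCaP-AI vehicle samples and 54.8 to 59.6 CPM with DOX, a log2 fold change of 0.93 (edgeR adjusted p = 0.0123), against 531 to 844 CPM in DU-145 cells. The 6 markers fixed for LNCaP-derived cells summed to 3783.8 CPM (vehicle 1), 5070.8 CPM (DOX 2) and 5019.5 CPM (DOX 3) on the vehicle 1 side. On the vehicle 2 side the sums were 2507.1 CPM (vehicle 2), 2386.5 CPM (vehicle 3) and 3735.3 CPM (DOX 1). In LNCaP-AI cells 3 of the 6 were called higher with DOX. KLK2, which rose most, was 76.6 to 101 CPM with vehicle and 322 to 418 CPM with DOX. FOLH1 (log2 fold change 0.65, edgeR adjusted p = 0.0880) and HOXB13 (0.22, adjusted p = 0.593) were not called. KLK2, KLK3, FOLH1 and HOXB13 had no count in any DU-145 sample. In bulk RNA, fewer cells of a type and less RNA per cell cannot be told apart. The part of this division and of these markers in the results below was not tested, and values within each side are given for the LNCaP-AI calls.

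Promoter sequences were read for the genes to show the letters through which SREBPs and their partners are known to act. RefSeq windows on GRCh38.p14, which run from 250 bases before to 50 bases after a transcription start, were found for 30 of the 33 genes (40 windows). On either strand, the classical sterol regulatory element, which SREBP binds, was found in 1 of the 40 windows, that of SREBF2, and in 0.0456% of all 35116 windows. A looser form, TCACNCCAC, which overlaps it, gave the same single window (2.5%) against 1.13% of all windows. The letters CCAAT, bound by NF-Y, were in 65% of the members' windows against 34.6% of all windows. Of the genes with a window, 14 of 16 sterol genes, STARD4 counted with the enzymes, held CCAAT in at least 1 window. The same held for 6 of 9 fatty acid enzymes. GGGCGG, bound by SP1, was in 87.5% against 45%, and the E-box CACGTG in 15% against 7.26%. A match describes letters and not a bound site. The stretches shown, which hold no exon of a protein-coding gene, belong to the regulator with the full sterol element, to the regulator that fell most in DU-145 cells, to the gene that rose most in LNCaP-AI cells and to the sterol enzyme with the highest called fold change in DU-145 cells, and were picked with those values known. The stretch for SREBF2 lies at chr22:41832855-41833104 and that for INSIG1 at chr7:155297628-155297775, both on the plus strand. The stretch for STARD4 lies at chr5:111512591-111512785 on the minus strand and that for NSDHL at chrX:152830813-152830966 on the plus strand. All are written 5′ to 3′ in the direction of the gene, and capitals mark the sterol element and each CCAAT, which reads ATTGG where it lies on the other strand.
SREBF2: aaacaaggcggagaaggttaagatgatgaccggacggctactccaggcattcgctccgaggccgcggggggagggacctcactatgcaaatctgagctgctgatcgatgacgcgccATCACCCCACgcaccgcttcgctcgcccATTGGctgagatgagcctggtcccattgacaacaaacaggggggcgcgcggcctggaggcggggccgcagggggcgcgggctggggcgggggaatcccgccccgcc
INSIG1: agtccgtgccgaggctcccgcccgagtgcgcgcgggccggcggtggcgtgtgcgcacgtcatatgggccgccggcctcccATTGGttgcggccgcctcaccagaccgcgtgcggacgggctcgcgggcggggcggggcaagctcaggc
STARD4: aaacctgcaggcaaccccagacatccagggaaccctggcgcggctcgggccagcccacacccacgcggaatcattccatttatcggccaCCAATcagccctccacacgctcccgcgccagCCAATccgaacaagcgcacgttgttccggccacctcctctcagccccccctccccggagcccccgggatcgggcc
NSDHL: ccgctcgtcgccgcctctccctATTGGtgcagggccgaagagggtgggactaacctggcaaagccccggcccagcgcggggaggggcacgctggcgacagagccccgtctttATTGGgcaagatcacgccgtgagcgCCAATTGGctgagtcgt
SREBF2 held 1 CCAAT beside its sterol element, INSIG1 held 1, STARD4 held 2 and NSDHL held 4, of which a pair overlap on opposite strands.

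Before DOX, fatty acid genes were among the most abundant members in both lines. On a per-length scale, as CPM per kb of exon, SCD, the desaturase that makes monounsaturated fatty acids, ranked highest, with a level of 249 ± 5.64 in LNCaP-AI and 160 ± 4.56 in DU-145 vehicle samples (SD, n = 3 each). CYP51A1, the lanosterol demethylase, ranked lowest in both, with levels of 1.02 ± 0.18 and 0.54 ± 0.27 CPM per kb. Of its exon bases 74.1% are shared with other annotated genes, so part of its reads may be missing from these counts. FASN, the fatty acid synthase, was the next most abundant in LNCaP-AI cells at a level of 140 ± 22.8 CPM per kb and ranked 9 of 33 in DU-145 cells at 27.5 ± 2.37. ACLY, which supplies cytosolic acetyl-CoA, stood at nearly the same level in both lines, with 88.2 ± 11.7 and 90.8 ± 1.44 CPM per kb.

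**Figure D1:**
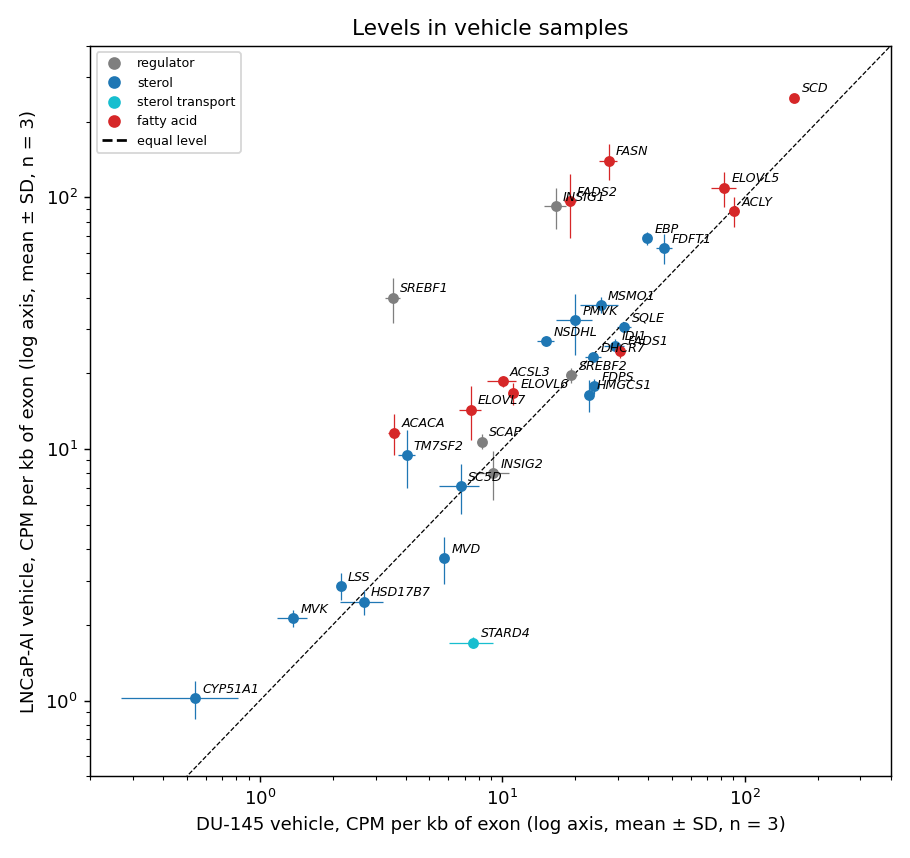
Mean level of each of the 33 genes in vehicle samples as CPM per kb of exon (log axes), DU-145 on the horizontal and LNCaP-AI on the vertical axis, with bars for the SD over 3 samples per line; the dashed line marks equal levels. SREBF1, INSIG1, FASN, FADS2 and ACACA lie furthest above the line and STARD4 furthest below it.

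Between the lines, 19 genes were higher and 5 lower in LNCaP-AI than in DU-145 vehicle samples, or 72.7% of the 33, where 65.1% of all 15628 genes tested were called (35% higher and 30.2% lower, adjusted p under 0.05, edgeR's quasi-likelihood test). Of the 10 fatty acid enzymes 8 were higher and 1, FADS1, was lower. Among the 17 sterol enzymes 8 were higher and 3, HMGCS1, MVD and FDPS, were lower. The median log2 difference was 0.76 over the fatty acid enzymes and 0.40 over the sterol enzymes, beside 0.06 over all genes tested. SREBF1, which encodes SREBP-1, differed most, at 39.9 ± 8.14 against 3.53 ± 0.24 CPM per kb (SD, n = 3 each), a log2 difference of 3.50 (SE 0.17, adjusted p = 8.24e-06, edgeR). SREBF2, which encodes SREBP-2, was at a level of 19.7 ± 1.36 against 19.3 ± 0.99 CPM per kb, a log2 difference of 0.03 that was not called (SE 0.09, edgeR adjusted p = 0.794). INSIG1 (log2 difference 2.47), FASN (2.35), FADS2 (2.35) and ACACA (1.69), the last encoding acetyl-CoA carboxylase, followed SREBF1. STARD4, which carries cholesterol between membranes, was the member furthest in the other direction, with a log2 difference of -2.16 (SE 0.17, edgeR adjusted p = 4.38e-05). The count of lower members was 2 without LNCaP-AI vehicle 2 and 3 without LNCaP-AI vehicle 3. In those fits 7923 of 13875 and 7762 of 13813 of all genes were called in either direction. Lineage, culture and any other difference between the lines cannot be told apart in this comparison.

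With DOX, 9 of the 33 genes were called in LNCaP-AI cells, 6 higher and 3 lower, which is 27.3% where 12.7% of all 16030 genes were called (7.22% higher and 5.52% lower). The genes that rose were STARD4, TM7SF2, ELOVL7, SC5D, ELOVL5 and FDFT1, and those that fell were FADS1, EBP and ELOVL6. Of the 33, 17 were called in DU-145 cells, 9 higher and 8 lower, and this share of 51.5% was the same as the 51.5% among all 13644 genes (26.3% higher and 25.3% lower). The genes that rose there were NSDHL, DHCR7, SC5D, EBP, MVD, IDI1, ACACA, SREBF2 and ACLY, and those that fell were FADS1, INSIG1, SREBF1, SCD, ELOVL5, ELOVL7, ELOVL6 and STARD4. The median log2 fold change over the 33 genes was 0.14 in LNCaP-AI and -0.06 in DU-145 cells, beside -0.05 and 0.00 over all genes tested. In LNCaP-AI cells the DOX samples were all above or all below the vehicle samples for 15 of the 33 genes (45.5%, 9 above and 6 below), against 37.4% of all genes (19.8% above and 17.6% below). The same held for 17 in DU-145 cells (51.5%, 10 above and 7 below), against 57.4% of all genes (29.6% above and 27.7% below). The LNCaP-AI calls rested on few libraries. By edgeR, 0 of the 33 genes were called without DOX 2 or without DOX 3, where 1 gene of all those tested remained called. An unadjusted p under 0.05 was found there for 9 of the 33. Of all genes, 3204 of 15807 without DOX 2 and 3201 of 15816 without DOX 3 also had one (edgeR). The count of higher genes was 3 without vehicle 2 or vehicle 3, and that of lower genes was 1 without vehicle 1 or vehicle 2. Over all genes, 2173 of 15791, 1096 of 15123 and 994 of 14967 were called without vehicle 1, vehicle 2 and vehicle 3. In DU-145 cells the count of higher genes was 5 without vehicle 1 and 4 without DOX 2. Over all genes, 6138 of 13404 and 6050 of 13411 were called in those fits. A fit of all 12 samples called 2 higher (NSDHL and DHCR7) and 4 lower (INSIG1, SCD, ELOVL6 and FADS1). Over all genes, 7033 of 13644 were called with the DU-145 samples alone and 4083 of 16800 in the fit of all 12 samples. In that fit EBP (edgeR adjusted p = 0.107), SREBF1 (0.0610), ELOVL5 (0.0750), SREBF2 (0.0961), IDI1 (0.107), STARD4 (0.234), ACLY (0.253), MVD (0.274), ELOVL7 (0.283), SC5D (0.307) and ACACA (0.309) were not called in DU-145 cells.

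**Figure D2:**
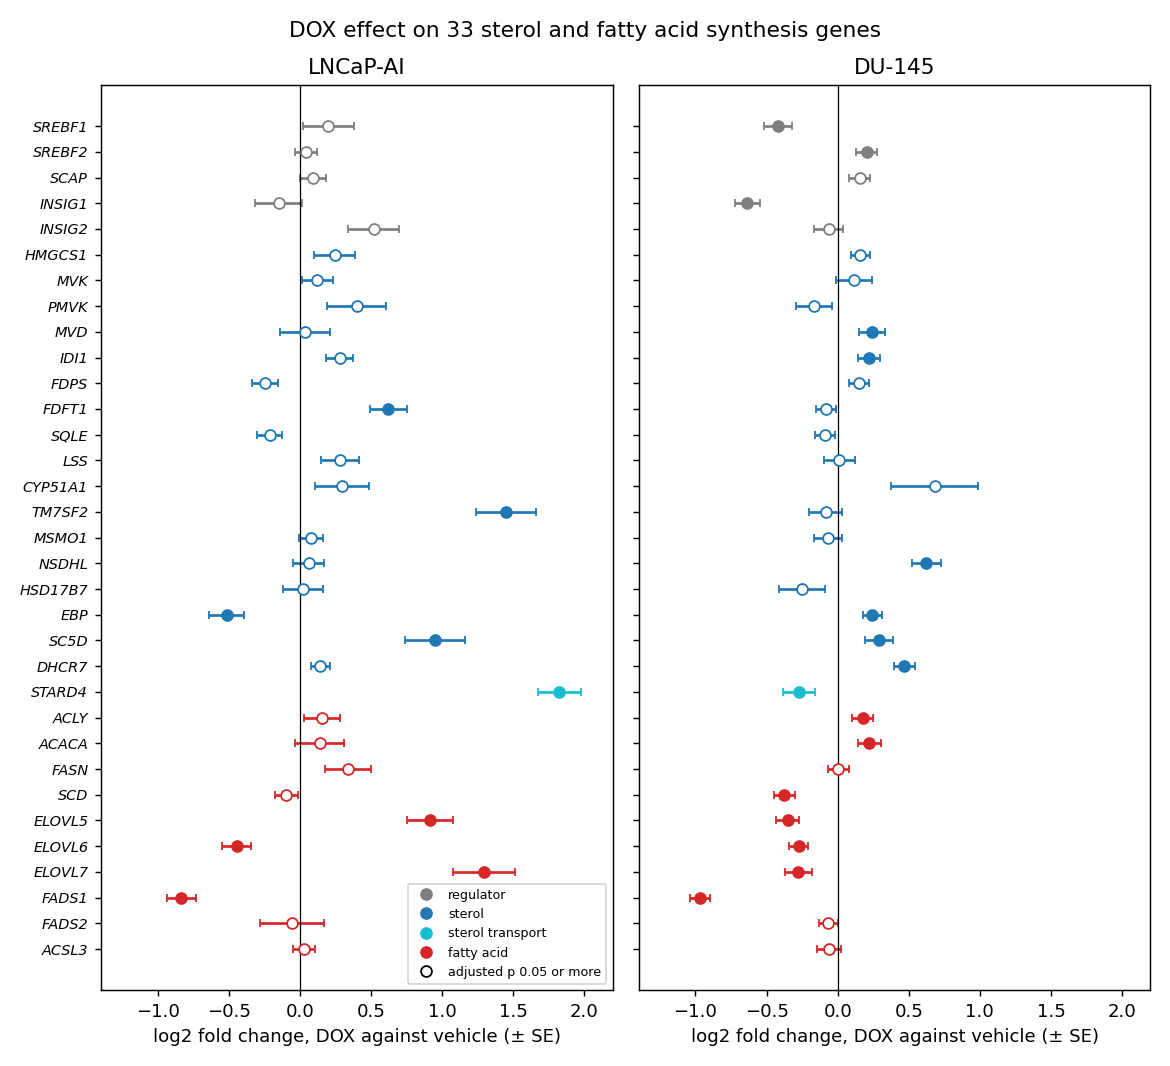
Log2 fold change of DOX against vehicle for each of the 33 genes (points, with bars for the SE), LNCaP-AI left and DU-145 right, coloured by branch and filled where the adjusted p was under 0.05. STARD4 and TM7SF2 rise furthest in LNCaP-AI cells, and FADS1 falls furthest in both panels.

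Of the regulators, none was called in LNCaP-AI cells, while SREBF1 and INSIG1 fell and SREBF2 rose in DU-145 cells. SREBF1 was 27.4, 28.0 and 24.7 CPM in the 3 DU-145 vehicle samples and 19.3, 22.1 and 18.2 CPM with DOX, a log2 fold change of -0.42 (SE 0.10, adjusted p = 0.00149, edgeR). Every DOX sample lay below every vehicle sample. In LNCaP-AI cells SREBF1 was 434, 285 and 336 CPM with vehicle and 349, 445 and 418 CPM with DOX, and the groups overlapped. Its log2 fold change there was 0.20 (SE 0.18, edgeR adjusted p = 0.503), with -0.01 within the vehicle 1 side and 0.17 within the vehicle 2 side.

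SREBF2 was 151, 138 and 138 CPM in DU-145 vehicle samples and 170, 172 and 150 CPM with DOX, a log2 fold change of 0.20 (SE 0.07, edgeR adjusted p = 0.0238). The lowest DOX sample lay just under the highest vehicle sample. This call was lost without vehicle 3 (adjusted p = 0.105), DOX 1 (0.0842) or DOX 2 (0.105 in the same edgeR test). In LNCaP-AI cells SREBF2 was 178, 155 and 174 CPM with vehicle and 175, 175 and 173 CPM with DOX, with a log2 fold change of 0.04 (SE 0.08, edgeR adjusted p = 0.750), and -0.04 and 0.09 within the vehicle 1 and vehicle 2 sides.

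INSIG1 encodes the protein that retains SCAP and SREBP in the endoplasmic reticulum and is itself a target of SREBP. It was 58.3, 48.7 and 59.9 CPM in DU-145 vehicle samples and 35.8, 36.4 and 35.5 CPM with DOX, a log2 fold change of -0.63 (SE 0.08, adjusted p = 4.46e-06, edgeR). The DOX samples were tightly grouped and lay below all vehicle samples. In LNCaP-AI cells INSIG1 was 440, 342 and 297 CPM with vehicle and 286, 334 and 352 CPM with DOX, overlapping, with a log2 fold change of -0.15 (SE 0.17, edgeR adjusted p = 0.590). It was -0.36 within the vehicle 1 side and -0.16 within the vehicle 2 side, and 0.02 when vehicle 1 was left out. The related INSIG2 had a log2 fold change of 0.52 in LNCaP-AI (SE 0.18, edgeR adjusted p = 0.113) and 0.25 and 0.56 within its sides, with every DOX sample above every vehicle sample, and -0.06 in DU-145 cells (adjusted p = 0.631). SCAP, the escort of SREBP, stood at 0.09 and 0.16 on the log2 scale, and neither was called.

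In the mevalonate and isoprenoid steps, which lead from acetyl-CoA to farnesyl pyrophosphate, none of 6 enzymes was called in LNCaP-AI cells and 2 rose in DU-145 cells. IDI1, the isopentenyl diphosphate isomerase, was 109, 108 and 128 CPM in DU-145 vehicle samples and 137, 125 and 139 CPM with DOX. The log2 fold change was 0.22 (SE 0.08, adjusted p = 0.0220, edgeR), and the lowest DOX sample lay under the highest vehicle sample. MVD, the mevalonate diphosphate decarboxylase, went from 24.9 ± 0.73 to 29.4 ± 2.53 CPM (mean ± SD, n = 3 per group), with a log2 fold change of 0.24 (SE 0.09, edgeR adjusted p = 0.0298). Both calls were sensitive to single libraries. For MVD the adjusted p from edgeR was 0.0936, 0.0538, 0.0634 and 0.155 without vehicle 1, vehicle 2, vehicle 3 and DOX 2, and for IDI1 it was 0.129, 0.0741 and 0.0897 without vehicle 1, DOX 1 and DOX 3. HMGCS1, FDPS, MVK and PMVK were not called in either line, and their log2 fold changes ran from -0.24 (FDPS) to 0.40 (PMVK) in LNCaP-AI and from -0.17 (PMVK) to 0.16 (HMGCS1) in DU-145 cells.

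Among the 11 enzymes from squalene to cholesterol, 3 rose and 1 fell in LNCaP-AI cells, and 4 rose in DU-145 cells. TM7SF2, a sterol C14 reductase, was 45.2, 27.6 and 30.6 CPM in LNCaP-AI vehicle samples and 81.3, 99.9 and 101 CPM with DOX. The log2 fold change was 1.45 (SE 0.21, adjusted p = 0.0158, edgeR), and 1.15 and 1.48 within the vehicle 1 and vehicle 2 sides. All DOX samples lay well above all vehicle samples. In DU-145 cells TM7SF2 was 11.4 to 13.4 CPM in all 6 samples, with a log2 fold change of -0.08 (SE 0.12, edgeR adjusted p = 0.580). The LNCaP-AI call was lost without DOX 2 (edgeR adjusted p = 0.0924) or DOX 3 (0.0915).

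FDFT1, squalene synthase, which commits farnesyl pyrophosphate to sterols, was 395, 336 and 293 CPM in LNCaP-AI vehicle samples and 481, 533 and 560 CPM with DOX. Its log2 fold change was 0.62 (SE 0.13, edgeR adjusted p = 0.0330), with 0.47 and 0.62 within the sides, and the groups did not overlap. Without vehicle 2, vehicle 3, DOX 2 or DOX 3 its edgeR adjusted p was 0.0734, 0.0614, 0.137 and 0.140. SC5D, lathosterol oxidase, was the only sterol enzyme called higher in both lines. In LNCaP-AI cells SC5D went from 76.4 ± 18.3 to 147 ± 26.9 CPM (mean ± SD, n = 3 per group), with a log2 fold change of 0.95 (SE 0.21, edgeR adjusted p = 0.0395). In DU-145 cells it was 63.7, 49.6 and 73.4 CPM with vehicle and 75.0, 78.3 and 75.7 CPM with DOX, a log2 fold change of 0.29 (SE 0.10, adjusted p = 0.0201, edgeR). No groups overlapped, although the highest DU-145 vehicle sample came close to the DOX samples. The LNCaP-AI call was lost without vehicle 2, vehicle 3, DOX 2 or DOX 3 (edgeR adjusted p = 0.0833, 0.0823, 0.151 and 0.152), and the DU-145 call without vehicle 2, DOX 1 or DOX 2 (0.0790, 0.0537 and 0.0796).

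EBP, the sterol isomerase that moves the double bond of the ring, moved in opposite directions. It was 125, 129 and 136 CPM in LNCaP-AI vehicle samples and 106, 80.3 and 86.0 CPM with DOX, a log2 fold change of -0.51 (SE 0.12, edgeR adjusted p = 0.0445). In DU-145 cells it was 66.3, 63.3 and 63.1 CPM with vehicle and 77.7, 76.8 and 73.9 CPM with DOX, a log2 fold change of 0.24 (SE 0.07, adjusted p = 0.00615, edgeR). The groups did not overlap in either line. The DU-145 call held without each sample in turn, while the LNCaP-AI call held only without DOX 1 and was lost without vehicle 1, vehicle 2, vehicle 3, DOX 2 or DOX 3 (edgeR adjusted p = 0.0617, 0.0890, 0.104, 0.172 and 0.185). Of its exon bases, 36.4% are shared with another annotated gene on the same strand, so part of its counts may be assigned either way.

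In DU-145 cells the largest called rises of the sterol branch were those of NSDHL, a sterol dehydrogenase of C4 demethylation, and DHCR7, which reduces 7-dehydrocholesterol to cholesterol. NSDHL was 29.2, 28.9 and 25.2 CPM with vehicle and 50.0, 39.2 and 39.4 CPM with DOX, a log2 fold change of 0.62 (SE 0.10, adjusted p = 3.53e-05, edgeR). DHCR7 was 152, 159 and 138 CPM with vehicle and 221, 203 and 196 CPM with DOX, a log2 fold change of 0.47 (SE 0.07, adjusted p = 2.7e-05, edgeR). For both genes the lowest DOX sample exceeded the highest vehicle sample, and both calls held without each DU-145 sample in turn. In LNCaP-AI cells the log2 fold changes were 0.06 (edgeR adjusted p = 0.728) for NSDHL and 0.14 (0.219) for DHCR7. SQLE, LSS, CYP51A1, MSMO1 and HSD17B7 were not called in either line. They ranged from -0.21 (SQLE) to 0.30 (CYP51A1) in LNCaP-AI and from -0.25 (HSD17B7) to 0.68 (CYP51A1, SE 0.30, edgeR adjusted p = 0.0679) in DU-145 cells, and 74.1% of the exon bases of CYP51A1 are shared with other annotated genes.

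STARD4 (chromosome 5, 111496033 to 111512590, minus strand of GRCh38) rose more than any other member in LNCaP-AI cells. It was 10.0, 10.2 and 10.7 CPM in the vehicle samples and 29.6, 38.5 and 41.5 CPM with DOX. The log2 fold change was 1.82 (SE 0.15, adjusted p = 0.0123, edgeR), with 1.99 within the vehicle 1 side and 1.49 within the vehicle 2 side. The vehicle samples were nearly equal, and the lowest DOX sample was far above them. In DU-145 cells STARD4 was 39.0, 31.8 and 48.1 CPM with vehicle and 31.1, 34.0 and 33.6 CPM with DOX, overlapping, with a log2 fold change of -0.27 (SE 0.11, edgeR adjusted p = 0.0475). The DOX level in LNCaP-AI cells, 36.5 ± 6.22 CPM, lay near the DU-145 vehicle level of 39.6 ± 8.18 CPM (SD, n = 3 each), as values normalized within each line. The LNCaP-AI call was lost without DOX 2 (edgeR adjusted p = 0.0854) or DOX 3 (0.0829). The DU-145 call was lost without vehicle 3 (0.332), DOX 1 (0.179), DOX 2 (0.0934) or DOX 3 (0.0923), and with DESeq2 (0.0687).

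**Figure D3:**
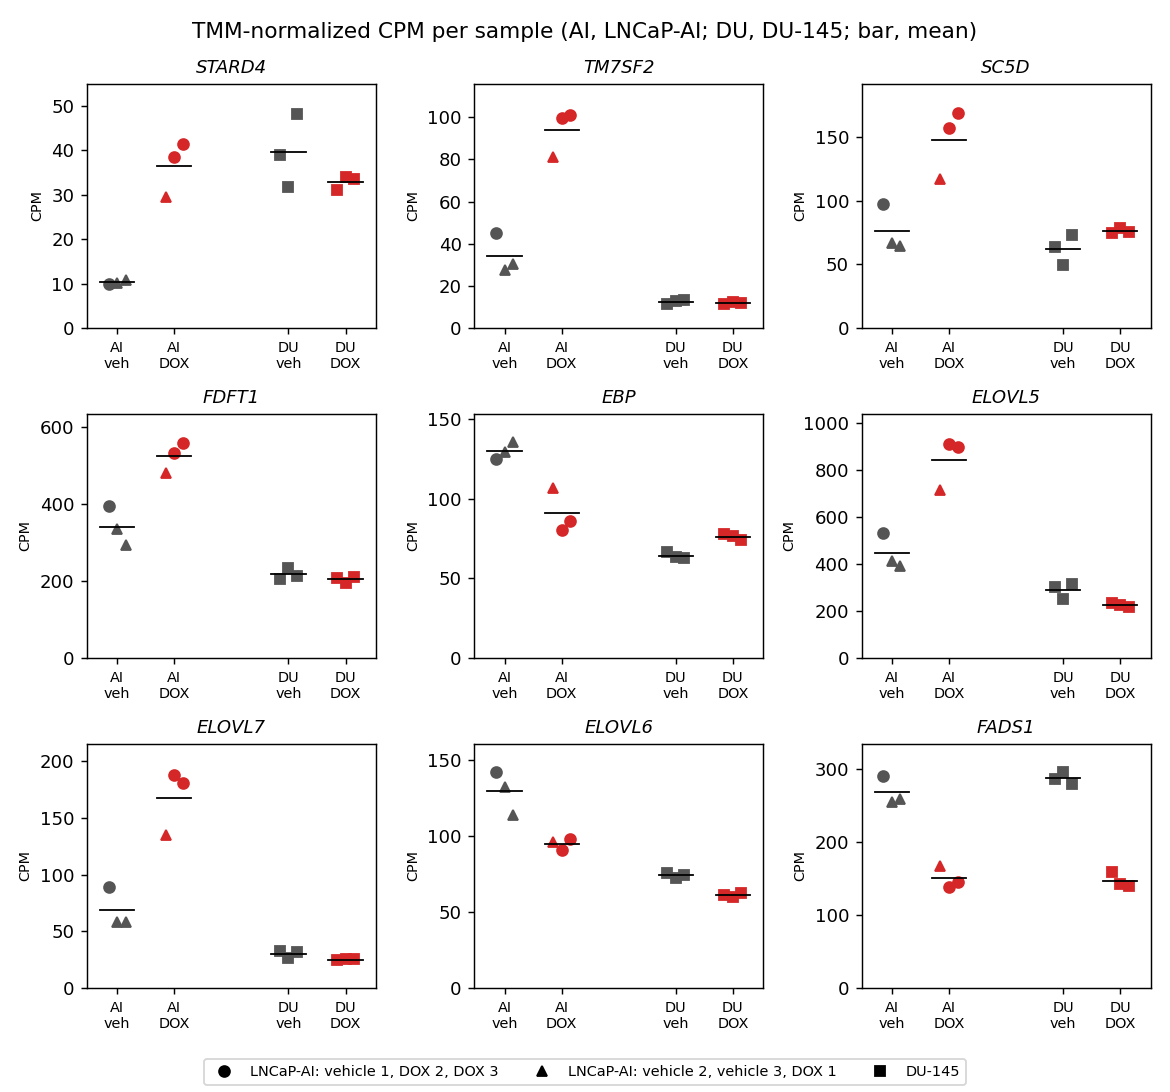
TMM-normalized CPM of the 9 genes called in LNCaP-AI cells, in each sample of both lines (points; bars mark the mean of 3 samples; each vertical axis starts at 0), with circles and triangles for the sides of the LNCaP-AI division and squares for DU-145. STARD4, TM7SF2, SC5D, FDFT1, ELOVL5 and ELOVL7 are higher and EBP, ELOVL6 and FADS1 lower in every DOX sample of LNCaP-AI cells.

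Of the 10 fatty acid enzymes, 2 rose and 2 fell in LNCaP-AI cells, and 2 rose and 5 fell in DU-145 cells. FADS1, the delta-5 desaturase of polyunsaturated fatty acids (chromosome 11, 61799627 to 61829318, minus strand of GRCh38), fell in both. It was 291, 255 and 260 CPM in LNCaP-AI vehicle samples and 168, 139 and 146 CPM with DOX, a log2 fold change of -0.83 (SE 0.10, adjusted p = 0.0125, edgeR). In DU-145 cells it was 287, 297 and 281 CPM with vehicle and 159, 143 and 140 CPM with DOX, a log2 fold change of -0.97 (SE 0.07, adjusted p = 1.42e-09, edgeR). No vehicle sample came near a DOX sample in either line. Within the LNCaP-AI sides it was -1.03 and -0.62, and the LNCaP-AI call was lost without DOX 2 (edgeR adjusted p = 0.0856) or DOX 3 (0.0854). FADS2, the delta-6 desaturase that lies beside it on the other strand, was not called, with log2 fold changes of -0.05 (SE 0.22) and -0.06 (SE 0.07), and the genes share 490 exon bases on opposite strands.

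ELOVL5 and ELOVL7 rose in LNCaP-AI and fell in DU-145 cells. ELOVL5, which lengthens polyunsaturated fatty acids, was 533, 411 and 393 CPM in LNCaP-AI vehicle samples and 713, 910 and 897 CPM with DOX, a log2 fold change of 0.92 (SE 0.16, edgeR adjusted p = 0.0225). In DU-145 cells it was 301, 250 and 315 CPM with vehicle and 235, 226 and 218 CPM with DOX, a log2 fold change of -0.35 (SE 0.08, adjusted p = 0.00113, edgeR). All LNCaP-AI samples with DOX were above, and all DU-145 samples with DOX below, their vehicle samples. ELOVL7, an elongase of long saturated and unsaturated chains, was 88.7, 58.1 and 58.3 CPM in LNCaP-AI vehicle samples and 135, 188 and 180 CPM with DOX, a log2 fold change of 1.29 (SE 0.22, edgeR adjusted p = 0.0202). It went from 30.3 ± 3.29 to 25.1 ± 0.61 CPM in DU-145 cells (mean ± SD, n = 3 per group), with a log2 fold change of -0.28 (SE 0.09, edgeR adjusted p = 0.0182). Within the LNCaP-AI sides the log2 differences were 0.76 and 0.83 for ELOVL5 and 1.05 and 1.22 for ELOVL7. The LNCaP-AI calls were lost without DOX 2 or DOX 3 (edgeR adjusted p = 0.108 and 0.110 for ELOVL5, 0.102 and 0.101 for ELOVL7), that of ELOVL5 also without vehicle 2 (0.0532) or vehicle 3 (0.0506). In DU-145 cells the ELOVL7 call was lost without vehicle 1, vehicle 3 or DOX 1 (edgeR adjusted p = 0.0681, 0.0567 and 0.0683).

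ELOVL6, which extends palmitate to stearate, fell in both lines. It was 142, 132 and 114 CPM in LNCaP-AI vehicle samples and 96.0, 91.1 and 98.3 CPM with DOX, a log2 fold change of -0.45 (SE 0.10, edgeR adjusted p = 0.0408). In DU-145 cells it went from 74.2 ± 1.68 to 61.3 ± 1.38 CPM (mean ± SD, n = 3 per group), with a log2 fold change of -0.28 (SE 0.07, edgeR adjusted p = 0.00247). Neither pair of groups overlapped. The LNCaP-AI call was lost without vehicle 1, vehicle 2, DOX 2 or DOX 3 (edgeR adjusted p = 0.0613, 0.0757, 0.181 and 0.154), and the DU-145 call held without each sample in turn.

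SCD was 795, 768 and 752 CPM in DU-145 vehicle samples and 627, 595 and 564 CPM with DOX, a log2 fold change of -0.38 (SE 0.07, adjusted p = 0.000231, edgeR). The groups stood well apart, and the call held without each sample in turn. In LNCaP-AI cells SCD went from 1396 ± 50.3 to 1307 ± 38.6 CPM (SD, n = 3 each), and its log2 fold change of -0.09 (SE 0.08, edgeR adjusted p = 0.469) was not called, with -0.18 and -0.02 within the sides. The enzymes that feed and build palmitate differed from SCD in DU-145 cells. ACLY (log2 fold change 0.18, SE 0.07, edgeR adjusted p = 0.0456) and ACACA (0.22, SE 0.08, adjusted p = 0.0288) rose slightly, while FASN stood at 235 ± 19.8 and 236 ± 16.0 CPM (log2 fold change 0.01, SE 0.08). The ACLY call was lost without vehicle 1, vehicle 2, vehicle 3, DOX 1 or DOX 2 (edgeR adjusted p = 0.120, 0.0688, 0.0898, 0.145 and 0.102) and the ACACA call without vehicle 1, vehicle 3, DOX 1 or DOX 2 (0.0938, 0.139, 0.144 and 0.0639). Under upper-quartile normalization ACLY, ACACA and MVD were not called (edgeR adjusted p = 0.0718, 0.0517 and 0.0516), nor were ACACA and MVD with DESeq2 (adjusted p = 0.0681 and 0.0853). In LNCaP-AI cells ACLY, ACACA and FASN had log2 fold changes of 0.15, 0.14 and 0.34, none called. ACSL3, which activates long-chain fatty acids, stood at 0.03 and -0.06 and was not called in either line.

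Set side by side, the means of the sterol and fatty acid enzymes among the members differed in direction in DU-145 cells. The mean level of the 17 sterol enzymes on the log2 CPM scale was 5.29, 5.19 and 5.33 in DU-145 vehicle samples and 5.39, 5.44 and 5.43 with DOX, a difference of 0.15. The mean level of the 10 fatty acid enzymes was 7.42, 7.32 and 7.37 with vehicle and 7.23, 7.18 and 7.12 with DOX, a difference of -0.19. The groups did not overlap in either branch. By calls, 6 sterol enzymes rose and 0 fell, or 35.3% of them, against 2 and 5 of the fatty acid enzymes, or 70% (edgeR). The share over all genes was 51.5% (26.3% higher and 25.3% lower). FADS1, with a log2 fold change of -0.97, fell furthest of the 10 fatty acid enzymes. The branches were compared by these values and counts, without a test, and the contrast describes these members only. Of the fatty acid genes in a wider list described below, FADS3 and ACSL1 were called lower in DU-145 cells. ACSS2, SCD5, ELOVL1, HSD17B12, TECR, ACSL5 and LPIN1 were called higher there (edgeR).

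In LNCaP-AI cells the sterol enzymes averaged 5.87, 5.67 and 5.72 on the log2 CPM scale with vehicle and 5.98, 5.99 and 6.02 with DOX, a difference of 0.24, and the groups did not overlap. The fatty acid enzymes averaged 8.75, 8.41 and 8.43 with vehicle and 8.58, 8.73 and 8.73 with DOX, a difference of 0.15, and vehicle 1 was the highest of the 6 samples. Within the vehicle 1 side the sterol difference was 0.14 and the fatty acid difference -0.02, and within the vehicle 2 side they were 0.28 and 0.16. The median log2 fold change was 0.14 over the sterol enzymes and 0.08 over the fatty acid enzymes.

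**Figure D4:**
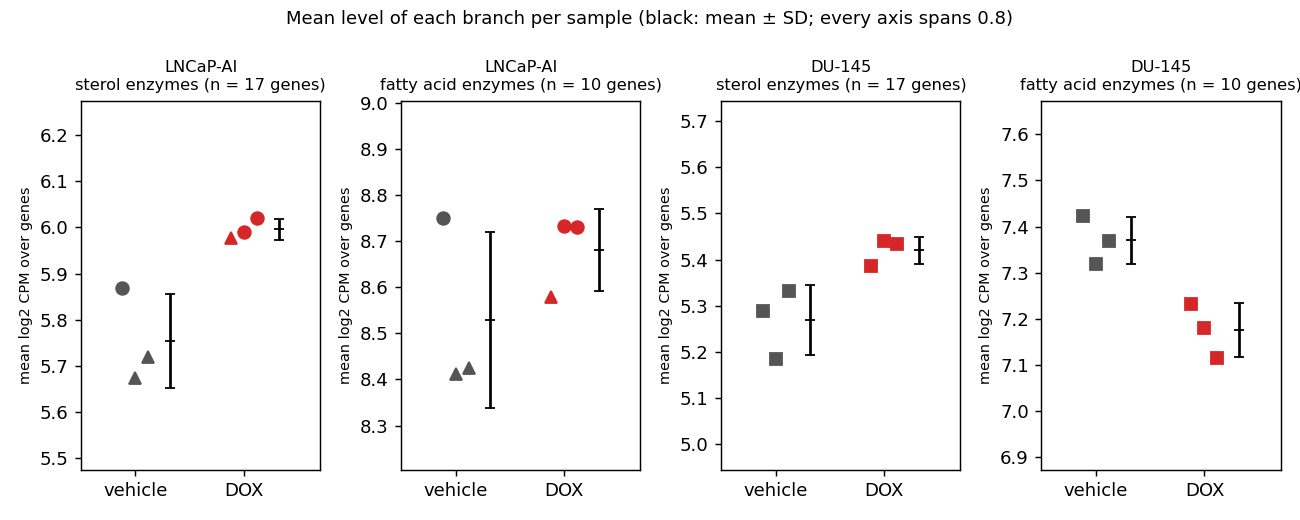
Mean log2 CPM over the 17 sterol or 10 fatty acid enzymes in each sample of each line (points, with symbols as for the sides of the LNCaP-AI division; black bars give the mean and SD of 3 samples; each axis spans the same range and does not start at 0). In DU-145 cells the sterol mean is higher and the fatty acid mean lower in every DOX sample, and in LNCaP-AI cells the fatty acid means overlap.

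An interaction term, fitted to the 12 samples already used within each line, tested whether a gene's response to DOX differed between LNCaP-AI and DU-145 cells. It was called for 6 of the 33 genes (18.2%), against 9.18% of all 16800 genes tested (5.43% higher and 3.76% lower). The effect was more positive in LNCaP-AI cells for STARD4 (log2 difference 2.12, SE 0.22, adjusted p = 0.000695, edgeR), ELOVL7 (1.60, SE 0.24, adjusted p = 0.00355), TM7SF2 (1.57, SE 0.23, adjusted p = 0.00317), ELOVL5 (1.30, SE 0.19, adjusted p = 0.00302) and FDFT1 (0.74, SE 0.15, adjusted p = 0.0120). It was more negative for EBP (-0.73, SE 0.14, adjusted p = 0.0104 in the same edgeR test). These 6 calls held when each of the 12 samples was left out in turn. FADS1 (0.17, adjusted p = 0.415) and ELOVL6 (-0.14, adjusted p = 0.471), which fell in both lines, were not called for a difference, nor was SC5D (0.69, SE 0.26, adjusted p = 0.126, edgeR). SREBF1 (0.66, SE 0.21, adjusted p = 0.0759), INSIG1 (0.52, SE 0.19, adjusted p = 0.116) and SCD (0.31, SE 0.09, adjusted p = 0.0506), which fell in DU-145 cells alone by their calls, were not called as different between the lines in this edgeR fit. With the side of the LNCaP-AI samples added as a term, chosen after seeing the data, 14 of the 33 and 24.5% of all genes were called, SREBF1 (adjusted p = 0.00336), SC5D (0.00330), INSIG1 (0.0125) and SCD (0.0390, edgeR) among them. Of the 9 genes called in LNCaP-AI cells, 3 were called in the same direction in DU-145 cells, 4 in the opposite direction and 2 were not called there, and 14 of the 33 were called in neither line. The count of members with a more positive effect was 11 without LNCaP-AI vehicle 1 and 8 without LNCaP-AI DOX 1. That with a more negative effect was 2 without LNCaP-AI vehicle 2 and 3 without LNCaP-AI DOX 1. Calls over all genes were 2604 of 16620, 1105 of 16427 and 3471 of 16296 without LNCaP-AI vehicle 1, vehicle 2 and DOX 1. With all 12 samples they were 1543 of 16800.

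Since groups did not overlap for any of the 9 genes called in LNCaP-AI cells, their differences necessarily had the same sign within both sides of the division of those samples, and the sizes varied, with 0.74 and 0.83 for SC5D, -0.59 and -0.31 for EBP and -0.59 and -0.36 for ELOVL6 beside those given above. Over the 33 genes the signs matched for 27, beside 12452 of the 16030 genes tested. Levels of the members were also compared between the sides themselves, where vehicle 1 and DOX 1 were each the only library of their treatment on their side. In the vehicle samples 27 of the 33 were lower on the vehicle 2 side, among them all 10 fatty acid enzymes, against 9265 of all 16030 genes, with a median log2 difference of -0.21 over the 33 (-0.08 over all genes tested). In the DOX samples 19 were lower on that side, among them 6 of the 10 fatty acid enzymes, against 8002 of all genes. Lower there in both treatments were 54.5% of the 33 and 42.4% of all genes tested. FADS2 was 1471 CPM in vehicle 1 against 869.99 and 942 CPM in vehicle 2 and vehicle 3, and vehicle 1 was also the highest vehicle sample for SREBF1 and INSIG1. With the side as a covariate, a fit that takes its groups from the counts it tests, 14 of the 33 genes and 6271 of the 16030 were called by edgeR. The genes added to the 9 were INSIG2 (log2 fold change 0.41), PMVK (0.29), IDI1 (0.23), FDPS (-0.25) and INSIG1 (-0.26).

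**Figure D5:**
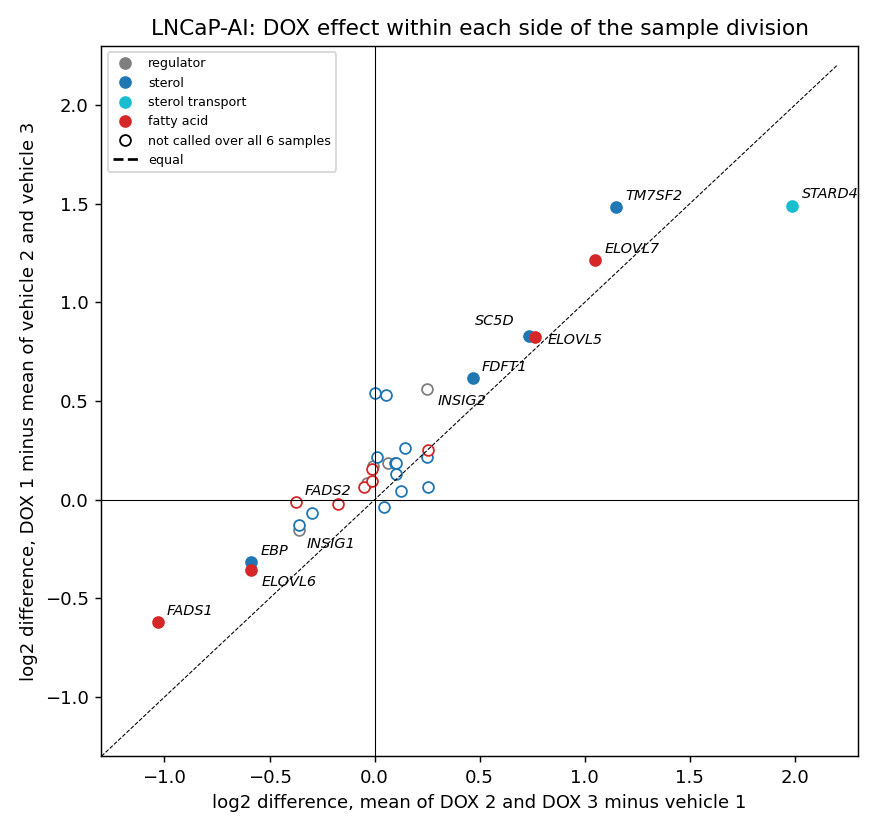
Log2 difference between DOX and vehicle samples of LNCaP-AI cells for the 33 genes, on the horizontal axis for the vehicle 1 side and on the vertical axis for the vehicle 2 side; filled points were called over all 6 samples and the dashed line marks equal differences. The 9 called genes lie in the quadrants where both differences have the same sign, which follows from their groups not overlapping.

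A wider list of 35 genes of the same pathways, of which 34 were tested in each line, was read beside the 33. With DOX, 4 rose and 2 fell in LNCaP-AI cells (17.6% of those tested, against 12.7% of all genes), and 16 rose and 5 fell in DU-145 cells (61.8% against 51.5%, edgeR). In LNCaP-AI cells ME1, the malic enzyme that supplies NADPH, had a log2 fold change of 1.08, ACSL1, an acyl-CoA synthetase, 0.99 and NR1H2, the sterol receptor LXR beta, 0.50, while LBR, the other sterol C14 reductase, fell by 1.19 on the log2 scale and MBTPS2, the site 2 protease of SREBP, fell by 0.90. Within the vehicle 1 and vehicle 2 sides the log2 differences were -1.52 and -0.69 for LBR, -1.10 and -0.55 for MBTPS2, 0.98 and 0.97 for ME1, 0.85 and 0.91 for ACSL1 and 0.41 and 0.52 for NR1H2. In DU-145 cells ABCA1, which exports cholesterol, ACSL5 and NR1H3, which encodes LXR alpha, had log2 fold changes of 1.29, 1.07 and 0.88, and LBR and MBTPS1, the site 1 protease of SREBP, had -1.37 and -0.86. MBTPS2 went from 37.9 ± 5.30 to 19.0 ± 1.30 CPM there (mean ± SD, n = 3 per group). LBR was 175, 183 and 173 CPM in LNCaP-AI vehicle samples and 110, 61.6 and 60.4 CPM with DOX, and 224, 191 and 243 CPM against 88.1, 88.7 and 79.0 CPM in DU-145 cells. The reductase TM7SF2 thus rose in LNCaP-AI cells where LBR, which carries out the same step, fell, and in DU-145 cells LBR fell and TM7SF2 was not called. Both proteases that release SREBP were lower with DOX in DU-145 cells, and MBTPS2 was lower in both lines.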

How the data were processed

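Stranded mRNA libraries (TruSeq) had been made from 3 cultures per group. Per the labels, the authors used CASAVA 1.8.2, STAR 2.7.0 and DESeq2 1.24.0 on GRCh38.p7, as listed in the submitters' processing notes, and deposited raw counts per gene. The tool that counted reads and its use of strand are not given in the sources used here. P-values set a difference against the spread between these cultures and do not extend to other lines or hairpins.

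Counts were compared with edgeR 4.0.16 (TMM, glmQLFit and glmQLFTest, R 4.3.3) on genes that reached 10 counts in 3 or more samples of the fit, adjusted by Benjamini-Hochberg over all genes tested and called under 0.05. LNCaP-AI and DU-145 samples were fitted apart (6 each), as were the vehicle samples of both lines (6), and all 12 gave the interaction. CPM values were TMM-normalized within a line, and log2 CPM used a prior count of 2. Exon lengths and positions came from GENCODE 44. DESeq2 1.42.0 was an alternative, and steps were tested on simulated data.

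The members and lists were chosen with earlier results of these data known. Values per sample are given for SREBF1, SREBF2 and INSIG1, and in each line for up to 5 called members per direction with the smallest adjusted p. Of the wider list, fold changes are given for up to 3 called genes per direction, those with the largest. Its fatty acid genes called in DU-145 cells are also named. HSD17B7, IDI1, FDPS, CYP51A1, SCD and ACSL3 have like-named pseudogenes that may share reads. Some of the marker genes are not reported here.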

Additional observations from a re-analysis of the deposited data

Results flagged for a closer look

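The DOX effect differed between the lines, by the interaction test of edgeR over 12 samples, for 6 of the 33 genes. The log2 difference, LNCaP-AI minus DU-145, was 2.12 for STARD4, 1.60 for ELOVL7, 1.57 for TM7SF2, 1.30 for ELOVL5, 0.74 for FDFT1 and -0.73 for EBP. STARD4, ELOVL5, ELOVL7 and EBP were called in opposite directions in the lines, whereas TM7SF2 and FDFT1 were called in LNCaP-AI cells and not in DU-145 cells. With the replicate number as a block in each line, the adjusted p from edgeR was 0.0783 for TM7SF2, 0.0815 for ELOVL5, 0.0879 for ELOVL7, 0.106 for EBP and 0.130 for FDFT1, and STARD4 remained called. That fit called 52 of all 16800 genes.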

How the results depend on the processing

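Over the alternatives tried, 400 values of single genes kept their direction and their side of the threshold, 93 lost the call, 1 gained it and 3 changed sign. Replicate numbers did not pair the samples, since same-numbered deviations correlated at -0.94 to -0.81 in LNCaP-AI and -0.09 to 0.13 in DU-145 cells. With the replicate block, 0 members were called higher and 0 lower in LNCaP-AI cells, where 0 of all 16030 genes were called. At an unadjusted p under 0.05 (edgeR) there were 9 members and 2909 of all genes. DESeq2 without the block called 11 members and 3517 of all 16030 genes. The blocked interaction gave 1 member higher and 0 lower, and called 52 of all 16800 genes. With the side on the first principal component as covariate, 5 members were lower in LNCaP-AI cells. The interaction with that term, in a fit chosen after seeing the data, gave 11 higher and 3 lower. These fits called 6271 of 16030 and 4109 of 16800 of all genes. The interaction by DESeq2 gave 3 members lower, with 2234 of all 16800 genes called in either direction. In DU-145 cells the fit of all 12 samples, whose spread is shared with LNCaP-AI cells, called 2 higher and 4 lower, and upper-quartile normalization called 6 higher and 8 lower. Over all genes these fits called 4083 of 16800 and 7019 of 13644. Without a filter the vehicle comparison called 3 members lower, with 11212 of all 32369 genes called in either direction. SREBF2 in LNCaP-AI cells was at -0.0051 without a filter. The sterol difference in LNCaP-AI cells was 0.14 as a median of fold changes and 0.135 within the side of vehicle 1, where the fatty acid difference was -0.018. The causes were not tested.

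Leaving out each sample in turn gave 0 to 8 higher and 0 to 3 lower members in LNCaP-AI cells, 4 to 8 and 6 to 10 in DU-145 cells, 5 to 11 and 1 to 3 in the interaction, and 15 to 20 and 2 to 6 in the vehicle comparison. Calls over all genes ran, in the same order, from 1 to 3538, 5973 to 7115, 737 to 3471 and 7762 to 9938. SREBF2 ranged from -0.025 to 0.077 and INSIG1 from -0.275 to 0.019 on the log2 scale in LNCaP-AI cells. CYP51A1 had the fewest counts, as few as 10, and an SE of 0.30 in DU-145 cells. Depth and the 74.1% of its exon bases shared with other annotated genes cannot be told apart here.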
